A study of Mus musculus with 4 samples.

Results

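The Ras exchange factors and GTPase activators described here are 10 genes: the exchange factors Rasgrp1, Rasgrp2, Rasgrp3 and Rasgrp4 of the RasGRP group, the exchange factors Sos1 and Sos2, and the GTPase activators Rasa1, Rasa2, Rasa3 and Nf1. They were chosen by symbol, as all probe sets that the platform annotation gives to exactly 1 of these genes, which yielded 26 of 34945 single-gene probe sets and 10 of 18193 named genes. Expression was measured by microarray in thymic CD4 single-positive cells from mice on the B6 background, T cell precursors that have settled on the CD4 lineage. KO cells came from CD4 Cre+ Cul3fl/fl mice and LM cells from CD4 Cre- Cul3fl/fl mice, so both genotypes carry the floxed Cul3 alleles, and there were 2 arrays of each. The Cre transgene is driven from the CD4 promoter, which is already active in double-positive thymocytes, and no array came from mice with Cre and unfloxed Cul3. The sort took cells without CD25, without gamma delta T cell receptor and without binding of CD1d-PBS57, the tetramer that stains NKT cells. The age of the mice, and whether the 2 samples of a genotype came from separate animals, are not given, so the spread between arrays may be technical.

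Ras is a small GTPase that signals while bound to GTP. Exchange factors load it with GTP, and GTPase activating proteins return it to the GDP form by speeding hydrolysis. In thymocytes the T cell receptor reaches Ras by way of phospholipase C gamma, whose product diacylglycerol recruits RasGRP proteins to membranes, and by way of the adaptor Grb2, which carries Sos. The strength of the resulting ERK signal is known to bear on positive and negative selection.

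The gene group was put forward because Rasgrp4 differed between the genotypes on these arrays. The KO minus LM differences of all 10 genes are therefore given as a description, with standard errors and intervals but no p-value, and nothing is read from which of them passed the threshold used over all genes. The deposited values are linear signals scaled to a common trimmed mean of 500 on every array, and signals of different probe sets are not on a common scale. Differences were computed after quantile normalization of log2(signal + 16), which understates the change of dim genes. The genotype rests on the labels: Cul3 in its brightest probe set read 5380 and 5577 on the KO-labelled arrays and 5333 and 5724 on the LM-labelled arrays, and none of the 5 Cul3 probe sets passed the threshold in either direction. Where these probe sets lie relative to the deleted exons is not given in the sources used here. All 10 CD4 T lineage markers with a probe set, among them Cd4, Cd3e and Il7r, were above background on each array. Correlations between arrays lay between 0.961 and 0.974.

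Rasgrp4 stood higher on both KO-labelled arrays, whereas Rasgrp1 hardly differed. RasGRP4 is an exchange factor best known from mast cells and other myeloid cells, and RasGRP1 is the main diacylglycerol-dependent exchange factor of thymocytes. The single Rasgrp4 probe set (1425380_at) read 531 and 603 on the KO-labelled arrays and 194 and 190 on the LM-labelled arrays. All 4 signals exceeded the background level, which was set by olfactory and vomeronasal receptor probe sets and lay between 77.7 and 106 on the normalized scale. On the log2 scale Rasgrp4 averaged 9.19 ± 0.11 in KO and 7.72 ± 0.05 in LM (SD, n = 2 each), a difference of 1.46 ± 0.24 (SE) with a 95% interval of 0.94 to 1.98, or 2.76-fold. The groups lay far apart next to the gap within either pair.

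The Rasgrp1 probe set with the highest mean signal (1450143_at) read 7621 and 7023 on the KO-labelled arrays and 7032 and 7652 on the LM-labelled arrays. The groups overlapped, and the difference was -0.0086 ± 0.084 (log2, SE), with a 95% interval of -0.19 to 0.17. The other 3 Rasgrp1 probe sets differed by -0.07, 0.03 and -0.15, and each of their 95% intervals included 0. Every Rasgrp1 probe set lay far above background on all arrays.

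Subtracting the Rasgrp1 difference from the Rasgrp4 difference array by array left 1.47 ± 0.12 (log2, SE over arrays), with a lower 95% limit of 0.94. The corresponding gap between Rasgrp4 and each of the other 7 measured genes ran from 1.19, against Rasa2, to 1.91, against Rasgrp2. With KO replicate 2 left out the Rasgrp4 difference was 1.39, and with KO replicate 1 left out 1.54, the lowest and highest values when 1 array was omitted. It no longer passed the threshold over all genes without KO replicate 2, without the intensity trend or without the filter on dim genes. The plot of signals by array shows the step in Rasgrp4 beside the flat Rasgrp1 traces.

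**Figure D1:**
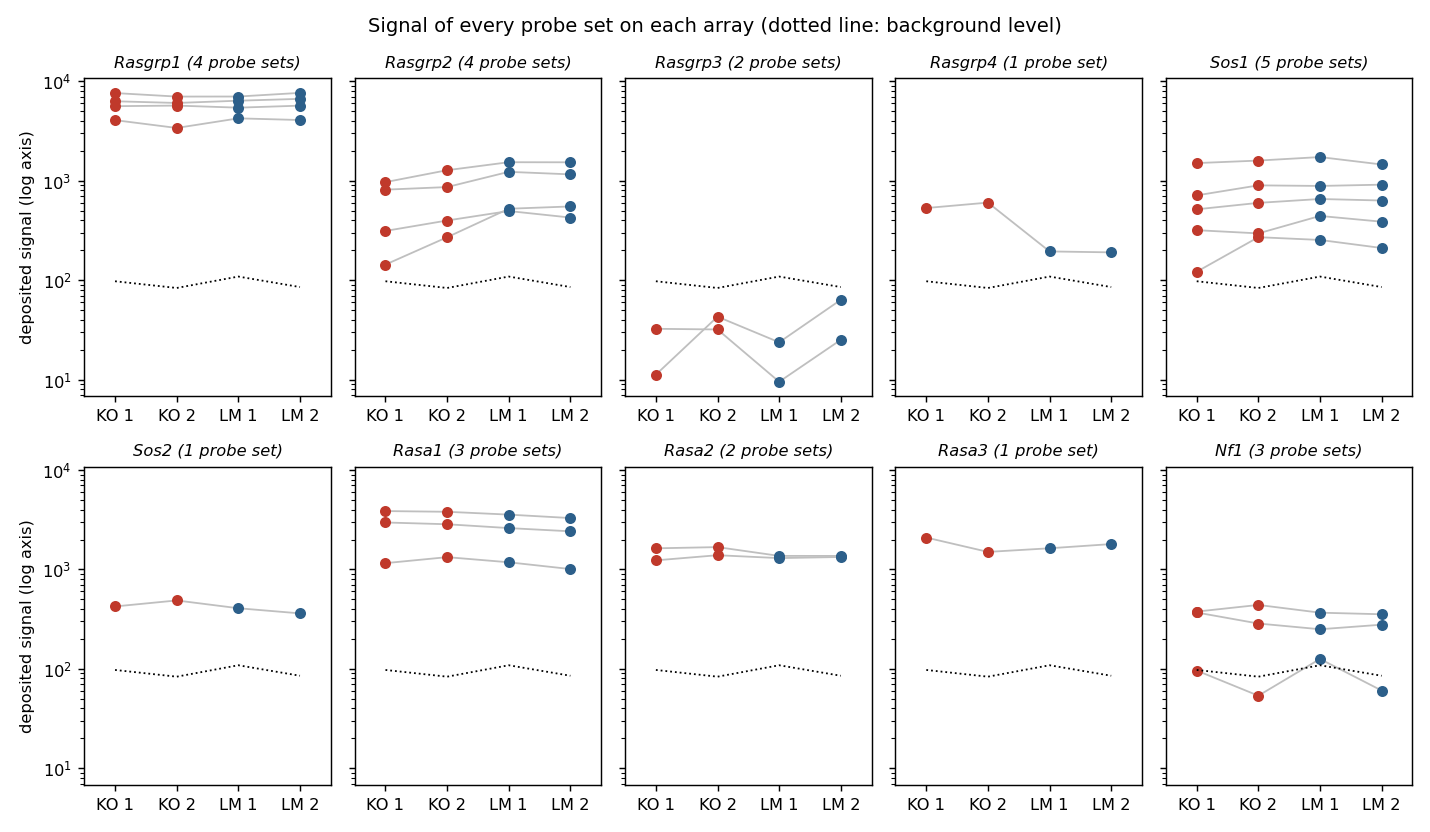
Deposited signal of all 26 probe sets (log axis) on the 2 KO arrays (red) and the 2 LM arrays (blue), 1 panel per gene; grey lines join the values of a probe set and the dotted line is the 95th percentile of the receptor probe sets that set the background. Rasgrp4 reads 531 and 603 in KO against 194 and 190 in LM, all 4 Rasgrp2 probe sets are lower in KO, and both Rasgrp3 probe sets lie below background.

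Rasgrp2 lay lower on both KO-labelled arrays than on either LM-labelled array in each of its 4 probe sets. RasGRP2, also called CalDAG-GEFI, acts mainly on the Ras relative Rap1 and is known for integrin activation in platelets. Its brightest probe set (1417804_at) read 968 and 1276 on the KO-labelled arrays and 1536 and 1533 on the LM-labelled arrays. The LM pair was nearly identical, the KO pair was spread, and the groups did not overlap. The log2 difference was -0.45 ± 0.18 (SE), with a 95% interval of -0.84 to -0.06.

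A second Rasgrp2 probe set, 1438933_x_at, whose suffix marks probes that may bind other transcripts too, read 813 and 864 on the KO-labelled arrays and 1229 and 1159 on the LM-labelled arrays. Another, 1438932_at, read 313 and 398 on the KO-labelled arrays and 496 and 426 on the LM-labelled arrays, a smaller separation. The widest separation was in 1442264_at, which read 143 and 270 on the KO-labelled arrays and 523 and 551 on the LM-labelled arrays. These 3 differed by -0.50, -0.36 and -1.38 (log2). The 95% interval of 1438932_at, -0.88 to 0.15, included 0.

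The size of the Rasgrp2 difference depended on the KO array used. For the brightest probe set it was -0.25 without KO replicate 1 and -0.65 without KO replicate 2, and for 1442264_at it was -0.98 and -1.78 in the same order. Averaged over all its probe sets Rasgrp2 differed by -0.67 ± 0.17 (log2, SE). Rasgrp2 did not pass the threshold over all genes, in its brightest probe set, in any other or in this average. A difference as large as that of the brightest probe set, or larger, in either direction, was seen in 15.1% of the genes tested.

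The windows around the start sites of Rasgrp1 and Rasgrp2 are shown because these RasGRP genes, each read by 4 probe sets, had such different values. The sequences are RefSeq's, build GRCm38.p6, from 250 bases before to 50 bases after each start. Capitals mark CACCC, a box bound by Krüppel-like factors, read on either strand (GGGTG on the printed one).
Rasgrp1, chr2:117342828-117343127, minus strand: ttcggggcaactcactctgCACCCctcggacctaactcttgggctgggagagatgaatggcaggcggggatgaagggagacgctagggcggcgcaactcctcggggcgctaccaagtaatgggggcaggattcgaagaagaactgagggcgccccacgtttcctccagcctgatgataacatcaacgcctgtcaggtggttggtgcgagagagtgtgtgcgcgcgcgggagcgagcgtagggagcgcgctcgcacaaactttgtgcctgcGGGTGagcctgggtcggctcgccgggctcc
Rasgrp2, first start, chr19:6399625-6399924, plus strand: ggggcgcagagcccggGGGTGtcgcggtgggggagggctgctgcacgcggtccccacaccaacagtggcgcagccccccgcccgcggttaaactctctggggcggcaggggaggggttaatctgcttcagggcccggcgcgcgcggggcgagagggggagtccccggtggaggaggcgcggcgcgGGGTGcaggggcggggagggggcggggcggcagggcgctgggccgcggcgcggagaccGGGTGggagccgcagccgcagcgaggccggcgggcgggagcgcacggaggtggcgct
Rasgrp2, second start, chr19:6401455-6401754, plus strand: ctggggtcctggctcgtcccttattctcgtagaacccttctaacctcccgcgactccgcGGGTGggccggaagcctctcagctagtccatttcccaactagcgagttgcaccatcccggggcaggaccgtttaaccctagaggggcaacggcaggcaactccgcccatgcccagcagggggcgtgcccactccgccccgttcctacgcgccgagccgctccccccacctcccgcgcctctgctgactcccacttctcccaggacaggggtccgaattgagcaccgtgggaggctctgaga
The windows held 2, 3 and 1 matches in that order. CACCC occurs in 57.5% of all 32851 RefSeq windows of this length, and in 8 of the 11 windows of the 9 genes other than Rasgrp4. The core TGACNNNGC of the antioxidant response element, bound by the Cul3 and Keap1 ligase target NRF2, was searched on both strands, with no overlap between the 2 motifs counted. It occurred in 12.4% of all windows and in 0 of those 11. These letter matches describe the windows only, and positions of the array probes relative to them were not used.

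Rasgrp3, a RasGRP member known from B cells, was not measurable. Its 2 probe sets read 11.2 and 42.9, and 32.4 and 31.9, on the KO-labelled arrays, and 23.7 and 63.4, and 9.5 and 25.1, on the LM-labelled arrays. All 8 values lay below background, so Rasgrp3 entered no comparison.

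Sos1 and Sos2 are the exchange factors that Grb2 brings to the membrane. The brightest Sos1 probe set (1421886_at) read 1505 and 1595 on the KO-labelled arrays and 1731 and 1457 on the LM-labelled arrays, a log2 difference of -0.023 ± 0.16 (SE). These groups overlapped. The other 4 Sos1 probe sets differed by -0.15, -0.20, -0.42 and -0.34, so all 5 were on the negative side, although each 95% interval included 0. In 1421885_at the groups did not overlap, with 516 and 599 on the KO-labelled arrays and 655 and 632 on the LM-labelled arrays. Nor did they in 1431311_at, with 318 and 295 on the KO-labelled arrays and 442 and 387 on the LM-labelled arrays. Averaged over its 5 probe sets Sos1 differed by -0.23 ± 0.17 (log2, SE). Without LM replicate 1 its brightest probe set differed by 0.11, on the other side of 0.

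The single Sos2 probe set (1452281_at) read 424 and 488 on the KO-labelled arrays and 407 and 361 on the LM-labelled arrays. The groups did not overlap but came close, and the log2 difference was 0.24 ± 0.22 (SE, 95% interval -0.24 to 0.73).

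The GTPase activators had positive differences in 7 of their 8 probe sets above background, each smaller than that of Rasgrp4. Several of these probe sets read the same gene, so they are not independent, and each of the 8 intervals included 0. Rasa1 encodes p120 RasGAP, which docks on phosphotyrosine through SH2 domains. Its brightest probe set (1426478_at) read 3865 and 3802 on the KO-labelled arrays and 3561 and 3287 on the LM-labelled arrays, without overlap, for a log2 difference of 0.17 ± 0.12 (SE). The other 2 Rasa1 probe sets differed by 0.22 and 0.19, so the 3 gave similar values, and each 95% interval included 0.

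Rasa2, a member of the GAP1 family, had 1 probe set with separate groups and 1 without. The brighter (1455181_at) read 1631 and 1677 on the KO-labelled arrays and 1368 and 1368 on the LM-labelled arrays, a log2 difference of 0.28 ± 0.15 (SE, 95% interval -0.06 to 0.61). The other (1422785_at) read 1234 and 1390 on the KO-labelled arrays and 1300 and 1334 on the LM-labelled arrays, a difference of -0.0036. The 2 probe sets thus differ in what they show for the same gene.

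Rasa3, a GAP1 family member that also acts on Rap1, read 2092 and 1501 on the KO-labelled arrays and 1632 and 1799 on the LM-labelled arrays (1415850_at). The KO pair spanned both LM values, and the log2 difference was 0.047 ± 0.17 (SE). It was -0.18 without KO replicate 1 and 0.27 without KO replicate 2, so single arrays decide its sign.

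Nf1 encodes neurofibromin, the tumour suppressor lost in neurofibromatosis. Its brightest probe set (1438067_at) read 377 and 439 on the KO-labelled arrays and 367 and 354 on the LM-labelled arrays, a log2 difference of 0.18 ± 0.23 (SE). The groups came within a few percent of each other. A second probe set differed by 0.27, with overlapping groups, and the dimmest was above background on 1 array.

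**Figure D2:**
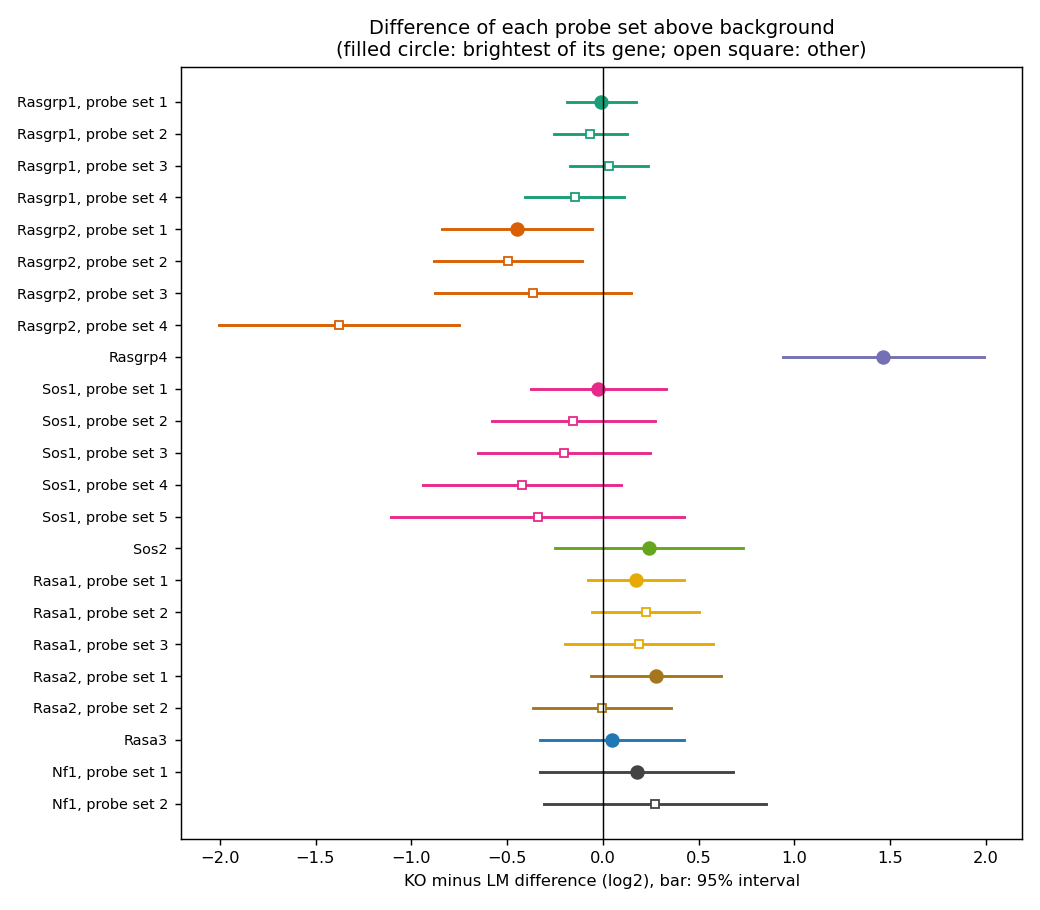
KO minus LM difference (log2) of the 23 member probe sets above background on at least 2 arrays, with 95% intervals from limma fitted to all probe sets; filled circles mark the brightest probe set of a gene. Rasgrp4 lies at 1.46 and the 4 Rasgrp2 probe sets between -1.38 and -0.36, 1 of them with an interval that includes 0, as do the intervals of all other genes.

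Of the 10 genes, 9 were above background on at least 2 arrays, as were 23 of the 26 probe sets. Rasgrp4 alone among the 9 passed the threshold of an adjusted p below 0.05 in limma over 11255 genes, where 0.275% of the genes passed in either direction and 0.133% passed as higher in KO. Since the genes were put forward for this contrast, nothing is read from that count. The groups did not overlap for 6 of the 9, namely Rasgrp4, Sos2, Rasa1, Rasa2 and Nf1 (higher in KO) and Rasgrp2 (lower in KO), against 37.4% of all genes tested, of which 19.1% were higher and 18.3% lower in KO. Among the 23 member probe sets, several of which read the same gene, the groups did not overlap for 6 higher and 7 lower in KO, against 18.3% and 18.5% of all probe sets tested. The median difference of the 9 was 0.17, against 0.0018 over all genes tested, and -0.0086 when each of the 23 probe sets counted separately. The Rasgrp4 difference was exceeded by 31 of the 11255 genes, counting only genes higher in KO.

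**Figure D3:**
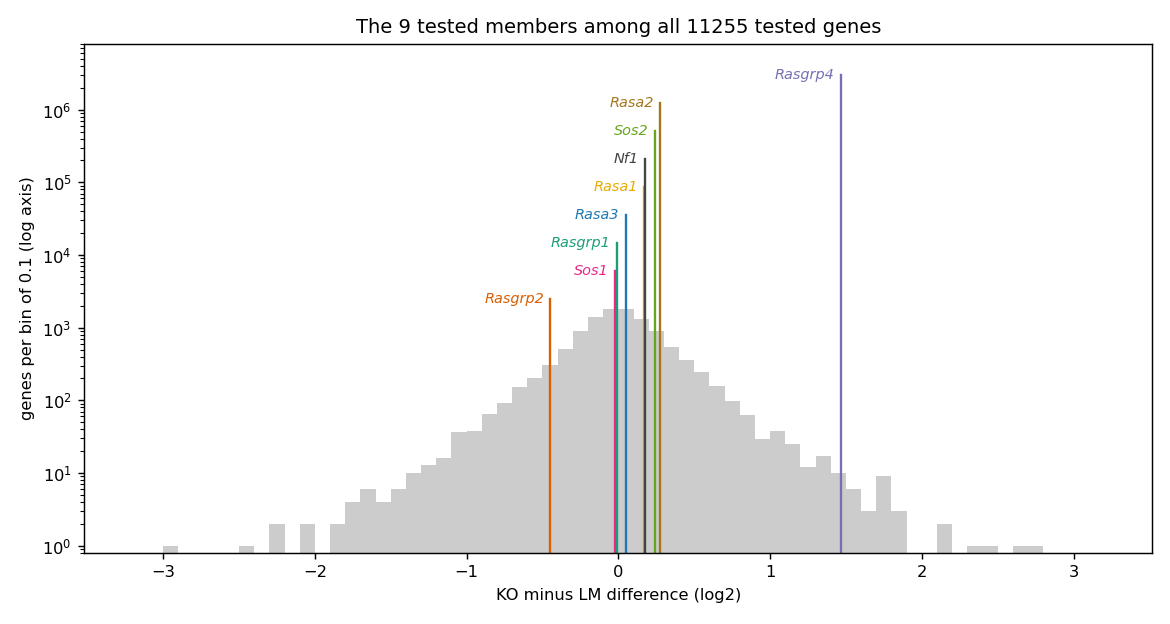
Histogram of KO minus LM differences (log2) of all 11255 tested genes in bins of 0.1 (log count axis), with a coloured line at the value of each of the 9 tested members; line height only separates the names. Rasgrp4 at 1.46 lies in the right tail and Rasgrp2 at -0.45 on the left flank, and the other 7 lie between -0.03 and 0.28.

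Most markers of cells in which Rasgrp4 is known to be expressed were near or below background on both genotypes. Of 11 mast cell markers with a probe set, 8 were below background on every array, including the defining genes Cpa3, Fcer1a, Ms4a2 and Kit. Tpsb2 was above background on 2 arrays and Gata2 on all 4. Gata2 read 137 and 243 on the KO-labelled arrays and 243 and 132 on the LM-labelled arrays, with overlap. The summed signal of the 11 was 526 and 573 on the KO-labelled arrays and 554 and 390 on the LM-labelled arrays, with overlap. Of 14 neutrophil and monocyte markers, 8 were below background on every array, among them Mpo, Elane and S100a9. The sum of the 14 was 660 and 787 on the KO-labelled arrays and 650 and 710 on the LM-labelled arrays. Lyz2, Csf1r and Camp were above background on 2 arrays and Fcgr3 on all 4. Fcgr3 read 148 and 149 on the KO-labelled arrays and 148 and 114 on the LM-labelled arrays. All 7 regulatory T cell markers were above background on each array, and their sum was 10961 and 9473 on the KO-labelled arrays and 8465 and 8697 on the LM-labelled arrays, without overlap. In that list Il2ra, which encodes CD25, differed by 0.72 ± 0.19 and Foxp3, whose groups overlapped, by 0.48 ± 0.34 (log2, SE). Ikzf2 read 2954 and 2742 on the KO-labelled arrays and 1943 and 2122 on the LM-labelled arrays, a difference of 0.49 ± 0.13 (log2, SE). Tnfrsf4 differed by 0.04 and Gpr83, with separate groups, by -0.21. Of the 7 markers, 6 had a positive and 1 a negative difference. Il2ra and Ikzf2 lay at an unadjusted p below 0.05 in limma, as did 8.4% of all genes tested. Over all genes, 0 of the 7 passed the threshold. These markers were chosen after their values were seen, and the part of the list in the Rasgrp4 and Rasgrp2 values was not tested. In such bulk samples a changed share of cells and a changed RNA level per cell cannot be told apart.

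The genes most like Rasgrp4 over the 4 arrays were found by the root mean square distance between mean-centred log2 values. They were Rnpep (0.068), Ctla2a (0.10), 2810006K23Rik (0.11), Gabarapl1 (0.12) and Gng4 (0.14). Rnpep encodes an aminopeptidase, Ctla2a a cathepsin inhibitor, Gabarapl1 an ATG8 family protein of autophagosomes and Gng4 a G protein gamma subunit. Rnpep, 2810006K23Rik and Gng4 were below background on both LM-labelled arrays, so their log2 values there have no order. The genes most like Rasgrp1 were the flat transcripts Gm9946, Sem1, Rpl22, Malat1 and Itm2b, at distances of 0.0059 to 0.012. With 4 arrays such likeness is a description only.

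The rest of the Ras pathway was read from 7 lists with 115 different genes, of which 102 had a named probe set and 86 were tested. By limma, 0 of the 86 passed over all genes tested in either direction, while 12 lay at an unadjusted p below 0.05, or 14.0%, against 8.40% of all genes. The groups did not overlap for 37 of the 86, or 43.0%, near the 37.4% of all genes tested. The median difference of the 86 was 0.026 (log2).

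Among 12 Ras-family GTPases, with a median difference of 0.05, the 2 with the smallest p were Ralb, a Ras effector GTPase of exocytosis, and Rap2a. Ralb read 397 and 285 on the KO-labelled arrays and 217 and 118 on the LM-labelled arrays, so its log2 values differed by 0.96 ± 0.32 (SE), with an adjusted p of 0.393 in limma. Without LM replicate 2 it differed by 0.63. Rap2a differed by 0.45 ± 0.24 (limma adjusted p = 0.677), or by 0.26 without LM replicate 1 and 0.29 without KO replicate 1. With the mean of all its probe sets Rap2a differed by 0.045 ± 0.31, so its value depends on the probe set chosen. Nras, a direct substrate of the exchange factors, differed by -0.19 ± 0.12 (SE). Among 12 RAF, MEK and ERK pathway kinases and scaffolds the median was 0.01. There the kinase Braf differed by 0.33 ± 0.17 (limma adjusted p = 0.690) and the S6 kinase Rps6ka3 by -0.23 ± 0.17 (limma adjusted p = 0.807). Single arrays decided both sizes: Braf differed by 0.10 without LM replicate 2, and Rps6ka3 by -0.011 without LM replicate 1. So did the choice of probe set. With the mean of all probe sets of the gene, Braf differed by 0.057 ± 0.18 and Rps6ka3 by -0.045 ± 0.14.

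Upstream of the exchange factors 15 genes were tested, with a median of -0.0029. The docking protein Gab2 differed by 1.48 ± 0.48 (log2, SE, limma adjusted p = 0.360). It read 581 and 168 on the KO-labelled arrays and 99.2 and 95.8 on the LM-labelled arrays, so the high value was that of KO replicate 1, and only 1 LM array was above background. It was 0.60 without KO replicate 1, and 2.37, past the threshold, without KO replicate 2. The ubiquitin ligase Cblb, which restrains T cell receptor signalling, differed by 0.40 ± 0.18 (limma adjusted p = 0.583), a value that was 0.18 with KO replicate 2 left out and 0.22 with LM replicate 1 left out. Lat, the membrane adaptor on which phospholipase C gamma and Grb2 assemble, differed by -0.15 ± 0.11, Grb2 itself by -0.0029 ± 0.22 and Plcg1 by 0.04 ± 0.09 (log2, SE).

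Diacylglycerol kinases remove the lipid that recruits RasGRP proteins, and the 6 tested had a median difference of -0.20, with Dgkh at -0.00014 ± 0.33 (log2, SE). Dgka, a major form in T cells, read 5531 and 6384 on the KO-labelled arrays and 7136 and 7970 on the LM-labelled arrays, so its log2 values differed by -0.34 ± 0.10 (SE), with an adjusted p of 0.307 in limma. Dgkq read 157 and 133 on the KO-labelled arrays and 265 and 351 on the LM-labelled arrays, so its log2 values differed by -1.03 ± 0.31 (SE), with an adjusted p of 0.311 in limma. Dgkz, the other major T cell form, differed by -0.26 ± 0.12 (limma adjusted p = 0.602). Dgkd differed the other way, by 0.24 ± 0.12 (SE), with 3223 and 3240 on the KO-labelled arrays and 2800 and 2691 on the LM-labelled arrays. The groups did not overlap for Dgka, Dgkq, Dgkz and Dgke (lower in KO) and Dgkd (higher in KO), against 37.4% of all genes tested, and no kinase passed the threshold. Without KO replicate 1 Dgka differed by -0.21.

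Of the Sprouty and Spred inhibitors of Ras and RAF, 3 of 7 were above background on 2 arrays or more. Spred2 differed by 0.48 ± 0.17 (log2, SE, limma adjusted p = 0.427) and by 0.30 without KO replicate 2. Spry4 differed by 0.86 ± 0.64 (limma adjusted p = 0.809), or by -0.022 without LM replicate 1, which read 16.4, below background, and by 1.74 without LM replicate 2. Spred1, which brings neurofibromin to the membrane, differed by 0.23 ± 0.20 (SE). Among 19 other activators and exchange factors for Ras, Rap and Ral the median was 0.04. Rapgef3, the cyclic AMP-dependent Rap exchange factor, differed by 0.85 ± 0.32 (limma adjusted p = 0.463), or by 0.36 without LM replicate 1 and 1.34 without LM replicate 2. Dab2ip, a Ras GTPase activator, differed by 0.75 ± 0.24 (limma adjusted p = 0.369).

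Genes known to be induced by ERK signalling differed in both directions. Of 20 tested, 12 had a positive and 8 a negative difference, with a median of 0.08. The groups did not overlap for 6 higher and 2 lower in KO, against 19.1% and 18.3% of all genes tested. At an unadjusted p below 0.05 in limma lay 4, against 8.4% of all genes tested. These were Cd69, Dusp4 and Dusp6 (higher in KO) and Egr1 (lower in KO). Cd69 differed by 0.56 ± 0.20 (limma adjusted p = 0.427) and Dusp6 by 0.37 ± 0.16 (log2, SE, limma adjusted p = 0.550), both without overlap. Dusp4, an ERK phosphatase induced by the pathway, read 885 and 553 on the KO-labelled arrays and 291 and 258 on the LM-labelled arrays. Its groups were well apart, the log2 values differing by 1.29 ± 0.26 (SE), with an adjusted p of 0.0776 in limma. It passed the threshold with median centring, with no normalization, with the stricter filter and with the replicate block. It did not pass without the filter on dim genes, with a pseudocount of 1 or 64, or without the intensity trend. Nor did it pass with robust moderation, with the mean of all probe sets or with every probe set tested separately. The Dusp4 difference was 0.95 without KO replicate 1 and 1.63 without KO replicate 2. Egr1, an early target of the pathway, differed the other way, by -0.29 ± 0.10 (limma adjusted p = 0.394), with 4692 and 4930 on the KO-labelled arrays and 5854 and 5969 on the LM-labelled arrays.

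**Figure D4:**
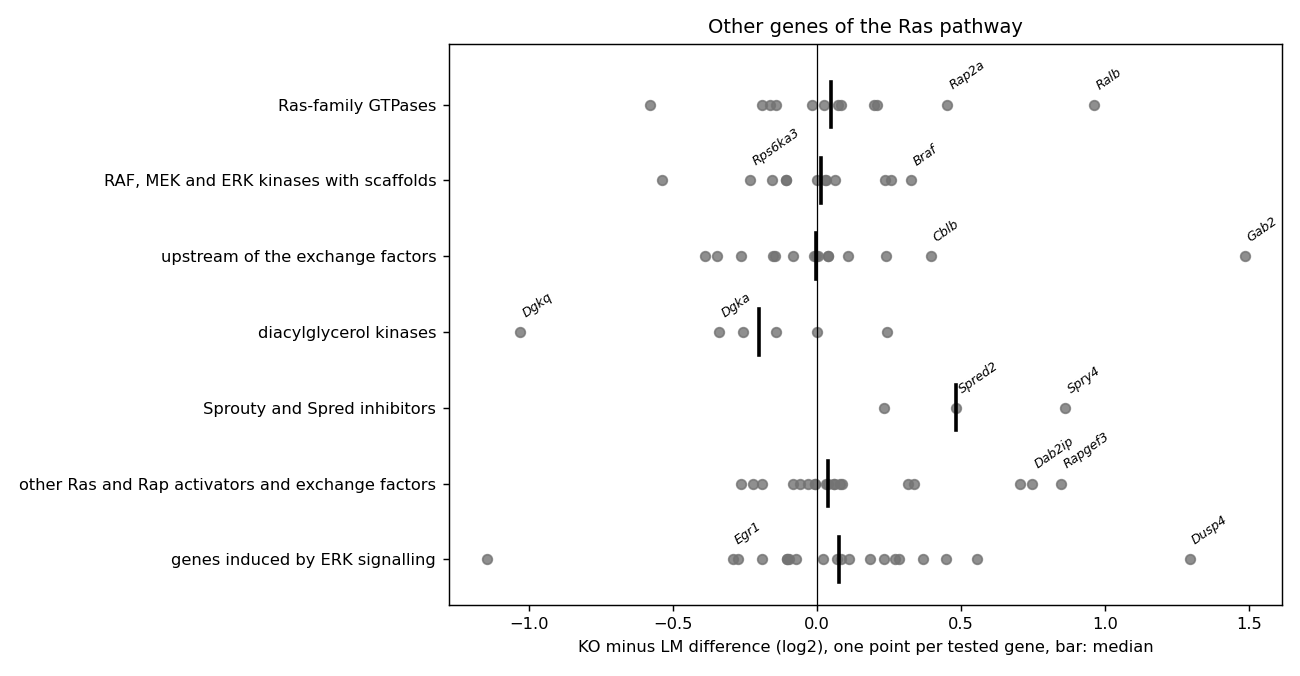
KO minus LM difference (log2) of each tested gene in 7 lists of the Ras pathway, 1 point per gene, with a bar at the list median; names mark the 2 genes of each list with the smallest p. Most points lie near 0, Gab2 and Dusp4 lie furthest right at 1.48 and 1.29, and the diacylglycerol kinases have a median of -0.20.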

How the data were processed

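The deposited table holds a linear intensity for every probe set on every array, which the authors had scaled: a mean trimmed by 2% at both ends came to 500.0 on each. How probes were summarised is not given in the sources used here. After removal of 64 control probe sets, 45037 of 45101 remained. The annotation names 1 gene for 34945 (34741 with a RefSeq table match), several for 932 and no gene for 9160. Intensities were taken as log2(value + 16) and quantile normalized. Each gene was represented by its brightest probe set by mean over the 4 arrays. A gene was tested if it exceeded, on at least 2 arrays, a background level, the 95th percentile of the 80 probe sets of olfactory or vomeronasal receptors.

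KO minus LM differences were fitted over 11255 genes with limma 3.58.1 in R 4.3.3 (lmFit, eBayes with an intensity trend, genotype as the only term), and two-sided p-values were adjusted by Benjamini-Hochberg, with genes called below 0.05. Residual degrees of freedom were 2 per gene, with 9.96 borrowed. Array number limits precision: standard errors had a median of 0.22 (log2). The fit was tested on simulated data, but no error rate from that test is given here, so nothing is read from it. Python 3.11.15, pandas 2.3.3 and matplotlib 3.10.9 were used for tables and plots.

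The members, gene lists and tests were chosen with earlier results of these data known. Named pathway genes were those called and the 2 with the smallest p in each list. Cd69, Dusp6, Nras, Lat, Grb2, Plcg1, Dgkz, Dgke, Dgkd, Dgkh, Spred1, Rasgrf2 and Rasal3 were chosen after their values were seen. So were the cell type markers. Alternatives concerned the filter, normalization, pseudocount, eBayes settings, probe set choice, the replicate number as a block and each array left out.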

Additional observations from a re-analysis of the deposited data

How the results depend on the processing

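With 2 arrays a genotype, precision rests on spread borrowed from other genes, and signal over background limits dim probe sets. Since Rasgrp4 was put forward for its difference on these same arrays, its sign and call under the alternatives are a description only. Rasgrp4 remained positive under every alternative run, but lost its call, and with it the only call among the 10 genes (0 called), without the filter on dim genes and without the intensity trend (1.46 in both, where 0 of all genes passed and 1247 and 922 lay at an unadjusted p below 0.05), and without KO replicate 2. Leaving out single arrays gave 1.39 to 1.54 for Rasgrp4, -0.050 to 0.033 for Rasgrp1, 1.35 to 1.59 for their gap, 0.11 to 0.18 for the median of the 9 genes and 0 to 1 called among the 10 genes. The gap between Rasgrp4 and Rasgrp1 was 1.29 with a pseudocount of 64. The median of the 9 genes was 0.047 with the mean of all probe sets and -0.0086 with every probe set tested separately. Over all genes 31 were called, 81 with median centring (38 higher and 43 lower), 50 with every probe set tested separately and 40 to 97 without single arrays. Fits without an LM array borrowed an infinite number of degrees of freedom, so their added calls do not rest on each gene's own spread. Of the 86 pathway genes, 1 was called (Dusp4) with the stricter filter, no normalization, median centring and the replicate block, and 1 to 2 (Dusp4, Gab2, Cd69) without single arrays.

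The labels do not say that equal replicate numbers mark a shared litter or day, and deviations of same-numbered arrays correlated at -0.017. With the replicate block Rasgrp4 differed by 1.46 ± 0.26 and kept its call, and 43 genes were called in all. Without an array, the remaining array of that genotype is assumed to vary like the other pair.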

Other observations

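Double-positive and immature thymocyte markers were part of the cell type lists. Of 7 tested, 6 had a positive difference, with a median of 0.11 (log2), against 0.0018 over all genes tested. None passed in limma, with 0 at an unadjusted p below 0.05. The groups did not overlap for 2, Rag2 and Cd8b1, both higher in KO, against 19.1% of all genes tested. Rag2, above background on 3 arrays, read 143 and 172 on the KO-labelled arrays and 78.6 and 124 on the LM-labelled arrays. It differed by 0.52 ± 0.39 (SE). Cd8b1, a chain of the CD8 coreceptor, read 629 and 479 on the KO-labelled arrays and 458 and 390 on the LM-labelled arrays, a difference of 0.36 ± 0.23 (SE). Dntt, the terminal transferase of antigen receptor rearrangement, read 2058 and 2186 on the KO-labelled arrays and 1865 and 2453 on the LM-labelled arrays, with overlap.

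Among Ras exchange factors of neurons, Rasgrf2 read 160 and 297 on the KO-labelled arrays and 156 and 99.3 on the LM-labelled arrays, a difference of 0.71 ± 0.37 (log2, SE, limma adjusted p = 0.677). The RasGAP relative Rasal3, known from haematopoietic cells, read 5176 and 5651 on the KO-labelled arrays and 5794 and 5518 on the LM-labelled arrays, a difference of -0.06 ± 0.10 (SE).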
